A study of Mus musculus with 8 samples.

Results

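Bone and cartilage were followed here through 10 genes, Runx2, Sp7, Alpl, Ibsp, Bglap, Dmp1, Spp1, Sox9, Col2a1 and Acan, in tomo-seq data of the mouse mouth. They were chosen by symbol, and all 10 had a row among the 33132 single-gene entries with at least 1 count. Tomo-seq barcodes the RNA of consecutive thin slices of a tissue block separately, so that a gene can be followed along the cutting axis. The 8 samples came from wild-type C57BL/6J mice and were untreated as far as the labels say: hard palate (the bony roof of the mouth), buccal mucosa (cheek lining), dorsal tongue (top of the tongue) and ventral tongue (its lower face) had 2 replicates each, with 20 sections of 14 µm per sample. The labels do not give the animals' age, whether replicates came from separate animals, or which end of the section numbering was the surface of the mucosa, and p-values here cover only sample-to-sample spread, part of which may be technical.

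Bone is laid down by osteoblasts, whose differentiation requires the transcription factor Runx2 and, after it, Sp7 (osterix). Osteoblasts make alkaline phosphatase (Alpl), which frees phosphate for mineral, and the matrix proteins bone sialoprotein (Ibsp), osteocalcin (Bglap) and osteopontin (Spp1), while Dmp1 is a protein of osteocytes and dentine. Cartilage is built by chondrocytes under the transcription factor Sox9, with type II collagen (Col2a1) and the proteoglycan aggrecan (Acan) as its main matrix. The mucosa of the hard palate is bound to the bone of the palate, whereas cheek and tongue lie over muscle. Several of these genes are also used elsewhere: Sox9 in glands and hair follicles, Spp1 in gland ducts and macrophages, and Alpl in endothelium.

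The upstream sequences of a bone matrix gene pair and of a cartilage gene that the results below turn on are printed first, since they differ in base composition and in the motifs they hold. RefSeq promoter windows (GRCm38.p6) were matched for 7 of the 10 genes, and Sp7, Col2a1 and Sox9 were not matched. The printed stretch starts 250 bases before the RefSeq start and ends before the first annotated start in RefSeq or GENCODE M21. It is written 5′ to 3′ in the gene's own direction, and capitals mark a match to the RUNX core ACCACA or to TATAAA on either strand.
Bglap, chr3:88384467-88384716, minus strand: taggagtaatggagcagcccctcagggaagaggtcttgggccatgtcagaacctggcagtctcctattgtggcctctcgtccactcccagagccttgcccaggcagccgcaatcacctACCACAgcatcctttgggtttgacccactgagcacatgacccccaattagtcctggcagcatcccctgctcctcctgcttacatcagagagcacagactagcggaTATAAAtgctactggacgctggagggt
Ibsp, chr5:104299037-104299170, plus strand: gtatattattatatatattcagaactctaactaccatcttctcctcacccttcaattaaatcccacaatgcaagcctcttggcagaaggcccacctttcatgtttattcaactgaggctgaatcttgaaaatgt
Acan, chr7:79052976-79053225, plus strand: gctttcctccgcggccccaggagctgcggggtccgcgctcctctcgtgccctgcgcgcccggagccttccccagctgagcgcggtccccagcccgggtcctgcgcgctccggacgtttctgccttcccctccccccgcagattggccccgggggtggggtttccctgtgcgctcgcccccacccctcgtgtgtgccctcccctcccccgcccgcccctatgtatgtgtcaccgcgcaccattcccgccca

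The Bglap window held the RUNX core 132 bases and TATAAA 27 bases before the start. G and C made up 56.4% of its bases, against 74.4% in the Acan window, which held neither motif. In Ibsp they made up 43.6% of the full 250 bases and 37.3% of the 134 bases printed. The Ibsp window held TATAAA 28 bases before the RefSeq start, past the end of the printed stretch. Over the 250 bases before each of the 10 windows listed for the 7 matched genes, 4 windows held ACCACA (of Runx2, Bglap, Dmp1 and Spp1), 4 held TATAAA (of Alpl, Ibsp, Bglap and Spp1) and 4 held the SOX core ACAAAG (both of Alpl and both of Spp1), each on either strand. Matches of different motifs overlapped in 0 cases. Of all 32851 RefSeq windows of this length, 14.0% held ACCACA, 12.4% TATAAA and 16.5% ACAAAG. A match is a run of letters and was not tested as a binding site.

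The genes' bodies are placed by GENCODE M21 on GRCm38. Ibsp (chromosome 5, 104299171 to 104311469), Dmp1 (104202613 to 104214102) and Spp1 (104435118 to 104441050) lie close together on chromosome 5, on the plus strand. Bglap (chromosome 3, 88383501 to 88384464) lies beside its near-identical copies Bglap2 (88377736 to 88378699) and Bglap3 (88368616 to 88372743). The sources used here do not give the treatment of reads shared by these 3 genes, and Bglap values are therefore uncertain.

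Libraries held 7830471 to 26376536 UMIs (unique molecular identifiers, which count each captured RNA molecule once), with 17743983 in hard palate replicate 1 and 26376536 in replicate 2. Levels are given as CPM, the UMIs of a gene scaled to a common total of the sample or section. The highest count of any of the 10 genes in 1 section was 248 UMIs, far from the 4096 UMIs at which the counts of a gene in a section stop. Buccal mucosa replicate 2 stood apart: the summed level of 10 keratinocyte markers was 393 CPM there and 11518 to 19154 CPM in the other samples, and that of 15 salivary gland markers was 16986 CPM against 39.8 to 142 CPM. In hard palate, the summed level of 12 skeletal muscle markers was 480 and 206 CPM, against 13107 to 40461 CPM at the other sites, and that of 8 tooth enamel and dentine genes was 177 and 139 CPM, against 0.8 to 4.6 CPM, most of it Odam, which is also made by the epithelium at the tooth. The 2 hard palate samples differed from each other in section depth, from 52783 to 2850676 UMIs in replicate 1 and from 554582 to 2356992 UMIs in replicate 2.

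Hard palate was set against the mean of the other 3 sites to ask which of these genes its RNA held in excess. Ibsp, Col2a1, Acan and Runx2 were higher in hard palate, and of the 8 genes that could be tested none was lower. Across all genes, 3.35% of 18609 tested were higher in hard palate and 6.42% lower, at a Benjamini-Hochberg adjusted p under 0.05 of edgeR's quasi-likelihood test. Ibsp, Col2a1 and Acan passed the filter on low counts through hard palate alone, where they had to be high, so that this count supports nothing about the group; Sp7 and Dmp1 did not pass the filter. Fewer cells of a type and less RNA per cell cannot be told apart in such bulk sections.

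**Figure D1:**
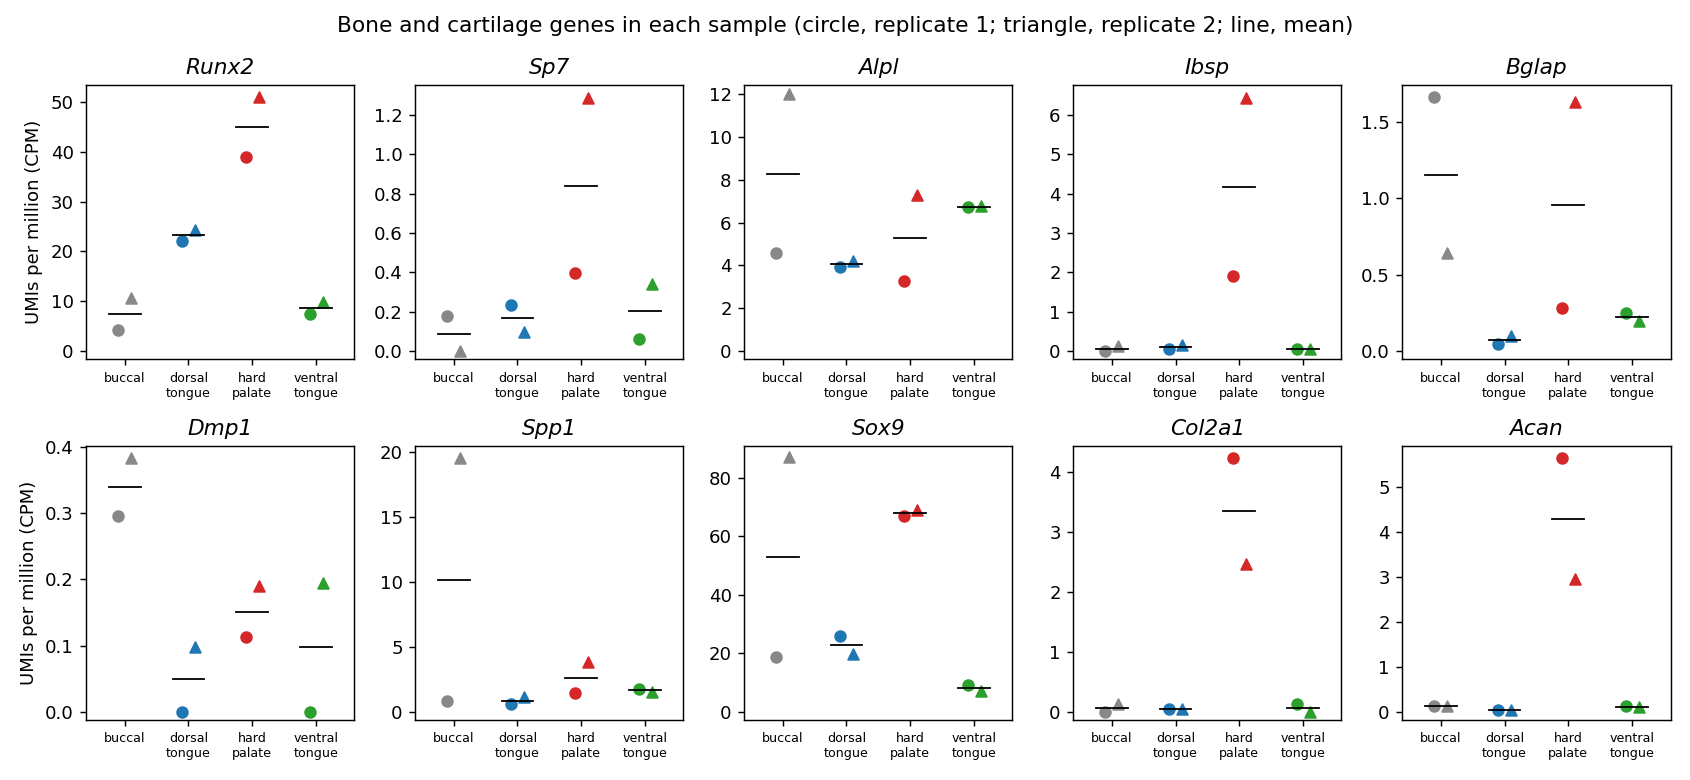
Level of each of the 10 genes (CPM, linear axes that differ between panels) in each sample, by site; circles are replicate 1, triangles replicate 2 and lines the mean of both. Ibsp, Col2a1, Acan, Runx2 and Sp7 are highest in both hard palate samples, whereas Spp1, Sox9 and Alpl are highest in buccal mucosa replicate 2.

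Runx2, which starts the osteoblast programme, was at 39.1 and 51.1 CPM in hard palate, 22.1 and 24.4 CPM in dorsal tongue, 7.54 and 9.79 CPM in ventral tongue and 4.21 and 10.6 CPM in buccal mucosa. Both hard palate samples lay above both dorsal tongue samples, and these lay above the rest, while ventral tongue and buccal mucosa overlapped. The mean was 45.1 ± 8.52 CPM (SD, n = 2) in hard palate and 13.1 ± 8.20 CPM (SD, n = 6) elsewhere, a log2 fold change of 1.69 (SE 0.33, edgeR adjusted p = 0.0259). This call was lost when either replicate of dorsal tongue, ventral tongue or hard palate was left out (adjusted p = 0.0625 to 0.124), with log2 fold changes of 1.53 to 1.93.

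Sp7, which acts after Runx2, was rare everywhere. Hard palate held 7 and 34 UMIs (0.394 and 1.29 CPM), and the other 6 samples 0 to 7 UMIs each (0 to 0.341 CPM). Both hard palate samples were above all others in CPM. Hard palate replicate 1 and ventral tongue replicate 2 both held 7 UMIs, however, and differed only through library size. With no filter on low counts, the log2 fold change of Sp7 was 2.14 and its edgeR adjusted p 0.0373, from 41 UMIs in hard palate against 18 elsewhere. Of these 41 UMIs, 34 came from replicate 2. With no filter many more genes were called in all, so that this p-value is no sign of stronger evidence.

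Ibsp, a phosphoprotein of mineralised matrix, had the largest contrast among the bone genes. Its counts were 34 and 170 UMIs in hard palate (1.92 and 6.45 CPM), and 0 and 1 in buccal mucosa, 1 and 3 in dorsal tongue and 1 and 1 in ventral tongue. Hard palate thus held 96.7% of its 211 UMIs. Summed over samples, its level was 68.0 times that of the other sites (95% exact interval 32.4 to 171, for counting error only). The fitted log2 fold change was 5.65 (edgeR adjusted p = 0.00647), a size that depends on the prior count since the other sites were near 0. Without hard palate replicate 2 it was 4.54, with an adjusted p of 0.0568.

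The other bone matrix genes did not follow Ibsp. Alpl was at 3.27 and 7.28 CPM in hard palate, 4.56 and 12.004 CPM in buccal mucosa, 6.74 and 6.77 CPM in ventral tongue and 3.91 and 4.23 CPM in dorsal tongue. All neighbours in its order of sites overlapped (log2 fold change -0.50, SE 0.47, edgeR adjusted p = 0.548). Spp1, a secreted phosphoprotein, was at 1.41 and 3.87 CPM in hard palate and at 0.565 to 1.79 CPM in 5 other samples, but at 19.5 CPM in buccal mucosa replicate 2, the sample rich in gland markers. Its log2 fold change was -0.18 (edgeR adjusted p = 0.933) and became 1.02 (adjusted p = 0.201) without that sample.

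Bglap, the gene of osteocalcin, had 5 and 43 UMIs in hard palate (0.282 and 1.63 CPM), but also 28 UMIs in buccal mucosa replicate 1 (1.66 CPM), and 1 to 5 in each of the rest. Its log2 fold change of 1.53 (SE 0.70) did not pass (edgeR adjusted p = 0.222) and turned to -0.19 without hard palate replicate 2. Its copy Bglap3 was lowest in hard palate, at 4.85 and 7.39 CPM in hard palate and 8.95 to 58.7 CPM elsewhere (log2 fold change -2.18, SE 0.28, edgeR adjusted p = 0.00647). The other copy, Bglap2, had 6 and 14 UMIs in hard palate and 22 to 48 in each tongue sample. In buccal mucosa it had 202 UMIs in replicate 1, the sample with 28 Bglap UMIs, and 0 in replicate 2. Dmp1 was at 2 and 5 UMIs in hard palate and 0 to 5 UMIs in each other sample, which allows no order. Sost and Fgf23, both made by osteocytes, had 9 and 7 UMIs in hard palate as a whole, against 2 and 8 UMIs in the other samples together.

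The cartilage genes split into matrix and regulator. Acan, the large proteoglycan, had 100 and 78 UMIs in hard palate (5.64 and 2.96 CPM) and 1 or 2 UMIs in each of the other 6 samples. Col2a1, the main collagen, had 75 and 65 UMIs in hard palate (4.23 and 2.46 CPM) and 0 to 2 UMIs in each other sample. Both genes were thus near 0 outside hard palate, where a count of 0 in buccal mucosa replicate 1 allows up to 0.178 CPM.

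Summed over samples, Acan was 46.2 times (95% exact interval 23.8 to 103) and Col2a1 65.4 times (27.3 to 204) the level of the other sites, for counting error only. The fitted log2 fold changes were 5.23 for Acan (edgeR adjusted p = 0.00279) and 5.62 for Col2a1 (edgeR adjusted p = 0.00727). Acan passed in every fit that left out 1 sample, and Col2a1 in all but the fit without hard palate replicate 1 (5.22, adjusted p = 0.0752). Unlike the bone genes, both had their higher CPM in replicate 1.

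Sox9, the regulator of both genes, was much more abundant and less tied to the site. It was at 67.1 and 68.8 CPM in hard palate, 18.8 and 86.97 CPM in buccal mucosa, 25.9 and 19.7 CPM in dorsal tongue and 9.27 and 7.21 CPM in ventral tongue. Buccal mucosa overlapped with both of its neighbours in this order, and ventral tongue lay below all. The log2 fold change of 1.36 (SE 0.49) did not pass (edgeR adjusted p = 0.133); it was 1.19 (adjusted p = 0.00512) without buccal mucosa replicate 1 and 1.86 (adjusted p = 0.00157) without replicate 2.

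**Figure D2:**
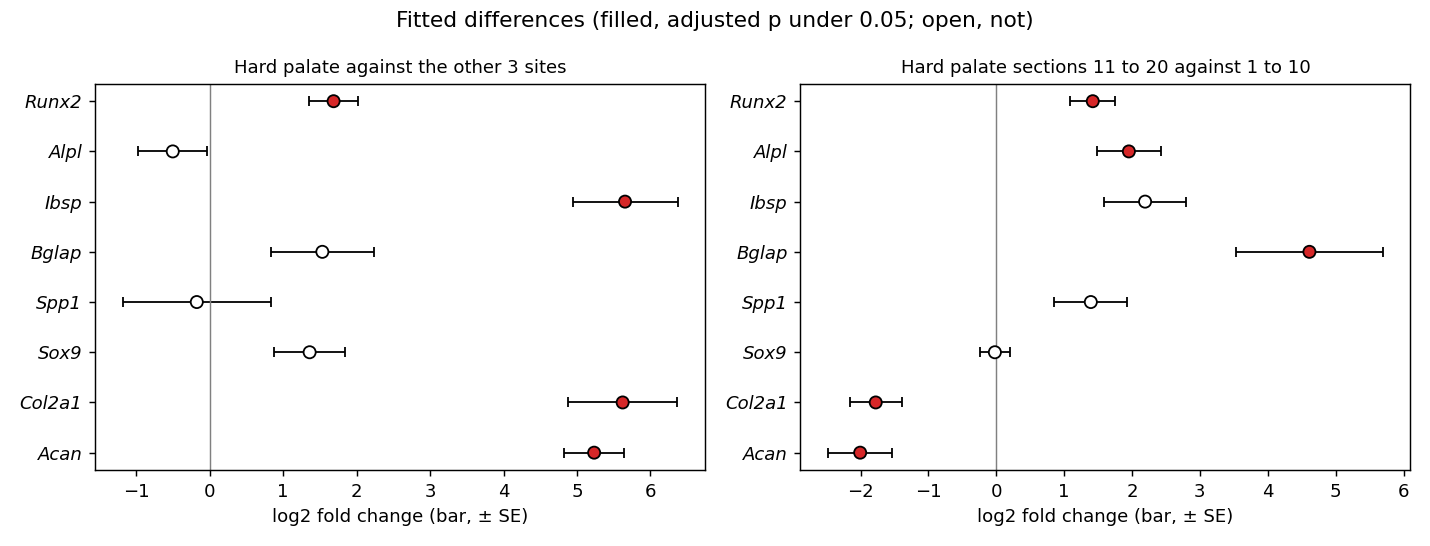
Fitted log2 fold changes of the 8 tested genes for hard palate against the other 3 sites (left) and for sections 11 to 20 against 1 to 10 of hard palate (right); bars are ± 1 SE derived from the test, and filled points had an adjusted p under 0.05. Ibsp, Col2a1 and Acan lie above 5 on the left, and the cartilage matrix genes lie opposite to the bone genes on the right.

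In the 1 test of any difference among the 4 sites, which called 4.77% of all genes, Acan (edgeR adjusted p = 0.0102), Ibsp (0.0300) and Col2a1 (0.0340) passed and Runx2 (0.0565) did not. Acan, Ibsp and Col2a1 each passed in 2 of 8 fits that left out 1 sample, those without a buccal mucosa replicate, and was lost in the other 6 (adjusted p up to 0.081 for Acan, 0.180 for Ibsp and 0.223 for Col2a1). Levels of 5 of the 10 genes were higher in both hard palate samples than in all 6 others. They were Runx2, Ibsp, Col2a1, Acan and, within counting error, Sp7. Such levels were found for 22.6% of the 18609 genes tested and for 14.9% of all 33545 entries with a UMI.

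The wider lists give the setting of these genes. Of 40 further osteoblast and bone matrix genes, 33 could be tested, and 3 were higher in hard palate and 4 lower. Over all genes, 3.35% were higher and 6.42% lower. The median log2 fold change of the list was 0.02, against -0.01 over all genes. Among the higher were Postn, a matrix protein of periosteum and periodontal ligament (85.8 and 186 CPM against 22.3 to 55.8 CPM elsewhere, log2 fold change 1.62), and the decoy receptor Tnfrsf11b (1.56), at a lower level and named after its values were seen. Lower were Mef2c (-3.67), Bglap3 (-2.18), Phospho1 (-2.06) and Slc20a2 (-1.60). Mef2c is also a muscle regulator, and the summed muscle markers given above are lower in hard palate too; their part in this difference was not tested. The main bone collagen genes Col1a1 (802 and 1664 CPM against 425 to 1279 CPM) and Col1a2 (839 and 2063 CPM against 696 to 1931 CPM) overlapped between hard palate and the rest.

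Of 30 further cartilage genes, 24 could be tested, and 5 were higher in hard palate and 1 lower, with a median log2 fold change of 1.17 (-0.01 over all genes, of which 3.35% were higher). Several of these genes were near 0 outside hard palate and could pass the count filter only by being high there, so the count and the median support nothing about the list. Col11a1, a minor fibrillar collagen of cartilage, was at 14.7 and 52.4 CPM in hard palate and 0.639 to 3.69 CPM elsewhere (log2 fold change 4.24, SE 0.53, edgeR adjusted p = 0.00643). The other 4, named after their values were seen, were the cartilage genes Ucma (6.43), Cnmd (5.82), Snorc (4.57) and Col9a2 (3.95 on the log2 scale), each at 1.48 to 5.07 CPM in the hard palate samples. The 1 lower was Cilp, at 14.4 and 19.1 CPM against 33.6 to 602 CPM (-4.20). Matn1, a cartilage matrix protein, had 1 UMI in hard palate and 0 elsewhere, and Col10a1, of hypertrophic cartilage, 34 UMIs in hard palate and 1 elsewhere.

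The next lists are set beside the 3.35% of all genes that were higher in hard palate. Of 16 osteoclast genes 14 were tested and 1 was higher, which cannot be told apart from that share. It was Mmp9 (9.52 and 3.56 CPM against 0 to 5.87 CPM, log2 fold change 3.29), which neutrophils also make. Ctsk, the osteoclast's collagen protease, was at 18.1 CPM in replicate 1 and 96.3 CPM in replicate 2 of hard palate, against 17.5 to 35.8 CPM (edgeR adjusted p = 0.439). Of 10 tendon and ligament genes 3 were higher, among them Tnmd (4.27) and Fmod (3.11 on the log2 scale). Of 14 bone marrow and neutrophil genes 6 were tested and 3 were higher: S100a8 (5.38), S100a9 (5.36) and Ltf (4.79). The summed level of that list was 834 CPM in hard palate replicate 1 and 216 CPM in replicate 2, against 10.8 to 110 CPM at the other sites. Mpo and Elane, of the same list, had no UMI in either hard palate sample, so these calls do not show which cells held this RNA. Whether marrow cells or neutrophils had a part in the differences above was not tested.

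The lists of other tissues are set beside the shares over all genes, 3.35% higher and 6.42% lower in hard palate. A single call in a list of 9 or 12 genes cannot be told apart from these shares. Of 12 skeletal muscle genes 8 were lower in hard palate, led by Pvalb (-8.54), Ttn (-6.99) and Mylpf (-6.81 on the log2 scale). Of 8 tooth genes 3 passed the filter, and 2 of these were higher, Odam (7.96) and Odaph (7.35), with 6281 and 235 UMIs in hard palate against 51 and 4 in the other 6 samples together. Odaph could pass the filter only by being high in hard palate. Of 9 endothelial genes Cdh5 (-2.06), of 12 macrophage genes Csf1r (-1.16) and of 12 salivary gland genes Bpifb1 (6.96, with 73.6 CPM in hard palate replicate 1 and 0.455 CPM in replicate 2) passed. Of 10 keratinocyte, 10 fibroblast and 10 Schwann cell genes 0 passed in edgeR and 0 in DESeq2, with 0, 2 and 0 at an unadjusted p under 0.05 in edgeR.

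Within hard palate, sections 11 to 20 were compared with sections 1 to 10 to see where along the axis these genes lay. The bone genes Runx2, Alpl and Bglap were higher in sections 11 to 20 and the cartilage matrix genes Acan and Col2a1 were lower, 5 of the 8 tested. Over all genes, 3.28% of 17905 tested were higher in sections 11 to 20 and 2.45% were lower. Bglap passed the filter on low counts only by being high in sections 11 to 20 of hard palate replicate 2 (2.85 CPM). Sections 1 to 10 of buccal mucosa replicate 1 (2.06 CPM) were needed as well. Its call, and its place in this count, therefore support nothing about the group. Runx2, Alpl and Bglap were higher in sections 11 to 20 in both replicates, with a larger difference in replicate 2. For Bglap this rests on 1 and 4 UMIs in replicate 1. Without replicate 2 the fitted log2 difference of Runx2 fell from 1.42 to 0.50 and that of Alpl from 1.95 to 0.60. Acan and Col2a1 were lower in sections 11 to 20 in both replicates. The calls also depended on samples of other sites: when 1 of the 8 samples was left out in turn, Runx2 and Alpl each passed in 3 of 8 fits and Bglap in 5. Runx2 and Alpl were lost without any 1 of the dorsal or ventral tongue samples (adjusted p = 0.0608 to 0.0696), and Bglap without ventral tongue replicate 1 or 2 (0.0609 and 0.0611).

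**Figure D3:**
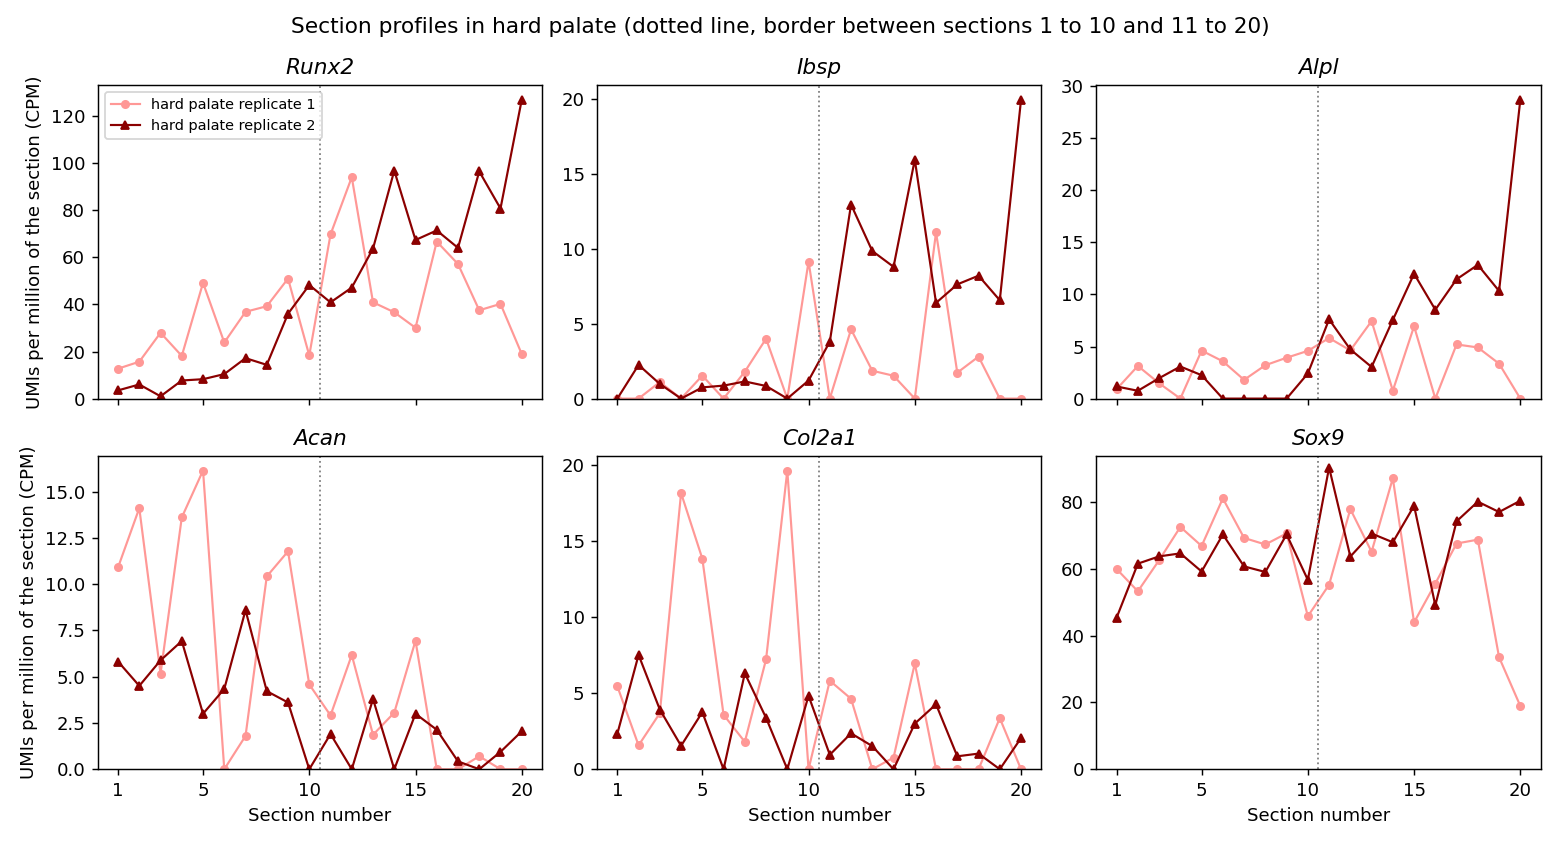
Level of 6 genes (CPM within the section) along the 20 sections of each hard palate sample; the dotted line separates sections 1 to 10 from 11 to 20. In replicate 2, Runx2, Ibsp and Alpl peak in section 20, and in both replicates Acan and Col2a1 peak before section 10.

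Runx2 was found in every section of both hard palate samples. In replicate 2 its level ran from 0.981 CPM to 127 CPM, with a median of 44.0 CPM and the peak in section 20, which held 248 UMIs. In consecutive groups of 5 sections it was 5.65, 21.8, 67.0 and 89.6 CPM. In replicate 1 the same groups were at 27.8, 34.6, 58.4 and 41.7 CPM, with the peak of 94.1 CPM in section 12.

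Replicate 2 therefore rose throughout, and replicate 1 rose and fell again. Sections 11 to 20 held 88.7% of the Runx2 UMIs of replicate 2 (95% exact interval 86.9% to 90.4%), against 57.1% of all its UMIs. In replicate 1 they held 56.9% (53.1% to 60.6%), against 44.4% of all its UMIs. The fitted log2 difference, sections 11 to 20 over 1 to 10, was 1.42 (SE 0.33, edgeR adjusted p = 0.0370). It was 0.50 without replicate 2 (adjusted p = 0.543) and 2.35 without replicate 1.

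Ibsp had 10 UMIs in sections 1 to 10 and 160 in sections 11 to 20 of replicate 2, or 0.884 and 10.6 CPM. Sections 11 to 20 thus held 94.1% of them (95% exact interval 89.4% to 97.1%). Replicate 1 had 14 and 20 UMIs, or 1.42 and 2.54 CPM, and the interval of its share, 40.7% to 75.4%, includes the 44.4% of all UMIs. The fitted difference was 2.19 (SE 0.60) and did not pass (edgeR adjusted p = 0.0652). It was 3.36 without replicate 1 (adjusted p = 0.0192) and 0.61 without replicate 2 (adjusted p = 0.849).

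Bglap had 0 UMIs in sections 1 to 10 and 43 in sections 11 to 20 of replicate 2, and 39 of these were in the last 5 sections. Taking the 0 at the 3 UMIs that it allows, sections 11 to 20 were at least 10.8-fold higher. Replicate 1 had 1 and 4 UMIs. Bglap entered the fitted test only through its high level in sections 11 to 20 of replicate 2, so a pass there is no support for a difference. The fitted test passed (edgeR adjusted p = 0.0368) but not without replicate 2 (adjusted p = 0.767). Sp7 had 4 and 30 UMIs in sections 1 to 10 and 11 to 20 of replicate 2 and 4 and 3 in replicate 1.

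Alpl, at 1.15 and 11.9 CPM in sections 1 to 10 and 11 to 20 of hard palate replicate 2 and 2.43 and 4.32 CPM in replicate 1, passed as well (log2 difference 1.95, SE 0.47, edgeR adjusted p = 0.0398), but had a log2 difference of 0.60 without replicate 2 (adjusted p = 0.712). This direction was not limited to hard palate. Sections 11 to 20 were also higher in all 6 other samples, by 1.303 to 3.22-fold, beside 1.77-fold and 10.3-fold in the hard palate samples.

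Spp1 was at 0.973 CPM in sections 1 to 10 and 6.04 CPM in sections 11 to 20 of replicate 2 and at 1.42 and 1.40 CPM in replicate 1. Its fitted difference of 1.39 did not pass (edgeR adjusted p = 0.157). Dmp1 had 1 and 4 UMIs in replicate 2 and 1 and 1 in replicate 1. Bone genes of replicate 2 thus lay late in the section order wherever their counts allowed an order. In replicate 1 the interval of the share in sections 11 to 20 was above the 44.4% of all UMIs for Runx2. It was barely so for Alpl (44.9% to 71.4%). For Ibsp, Bglap, Spp1, Sp7 and Dmp1 the interval included 44.4%. With 7 UMIs of Sp7 in replicate 1, neither a bias nor its absence can be read.

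Acan ran the other way. Replicate 1 had 81 UMIs in sections 1 to 10 and 19 in sections 11 to 20 (8.21 and 2.41 CPM), and replicate 2 had 57 and 21 (5.04 and 1.39 CPM). In groups of 5 sections it was at 10.006, 5.18, 4.34 and 0.505 CPM in replicate 1 and 5.13, 4.94, 1.91 and 0.969 CPM in replicate 2. Both samples fell at each step.

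The fitted difference of Acan was -2.01 (SE 0.47, edgeR adjusted p = 0.0379). Col2a1 had 62 and 13 UMIs in the same groups of replicate 1 (6.28 and 1.65 CPM) and 42 and 23 in replicate 2 (3.71 and 1.53 CPM), with a fitted difference of -1.78 (SE 0.38, edgeR adjusted p = 0.0416). Without either hard palate replicate in turn the difference of Acan was -2.05 and -1.99 and that of Col2a1 -1.48 and -2.14, none of which passed (adjusted p = 0.191 to 0.302). Both samples thus gave the same direction. The calls were also lost without dorsal tongue replicate 1 or 2 (adjusted p = 0.057 to 0.0624), and that of Col2a1 without ventral tongue replicate 1 or 2 (0.0579 and 0.0577).

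Sox9 was nearly even. The first and last 10 sections were at 65.5 and 69.1 CPM in replicate 1 and 61.2 and 74.6 CPM in replicate 2, and the fitted difference was -0.02 (SE 0.22, edgeR adjusted p = 0.982). Over all genes, 3.28% were higher in sections 11 to 20 and 2.45% lower. Of the 23 further cartilage genes tested between the first and last 10 sections, 3 were higher in sections 11 to 20 and 2 lower. The higher were Matn4, Epyc and Cilp2 and the lower Cnmd (-2.46) and Ucma (-2.02), all named after their values were seen. Epyc was at 0 CPM in hard palate replicate 1, and its 42 hard palate UMIs were all in replicate 2. Of 33 further bone genes, 3 were higher (Ogn, 1.82; Phex, 1.72; Col5a2, 0.74) and 3 lower (Smpd3, -0.93; Msx2, -0.85; Bmp2, -0.52). Phex, an osteoblast and osteocyte endopeptidase, was at 1.13 CPM in hard palate replicate 1 and 7.17 CPM in replicate 2.

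**Figure D4:**
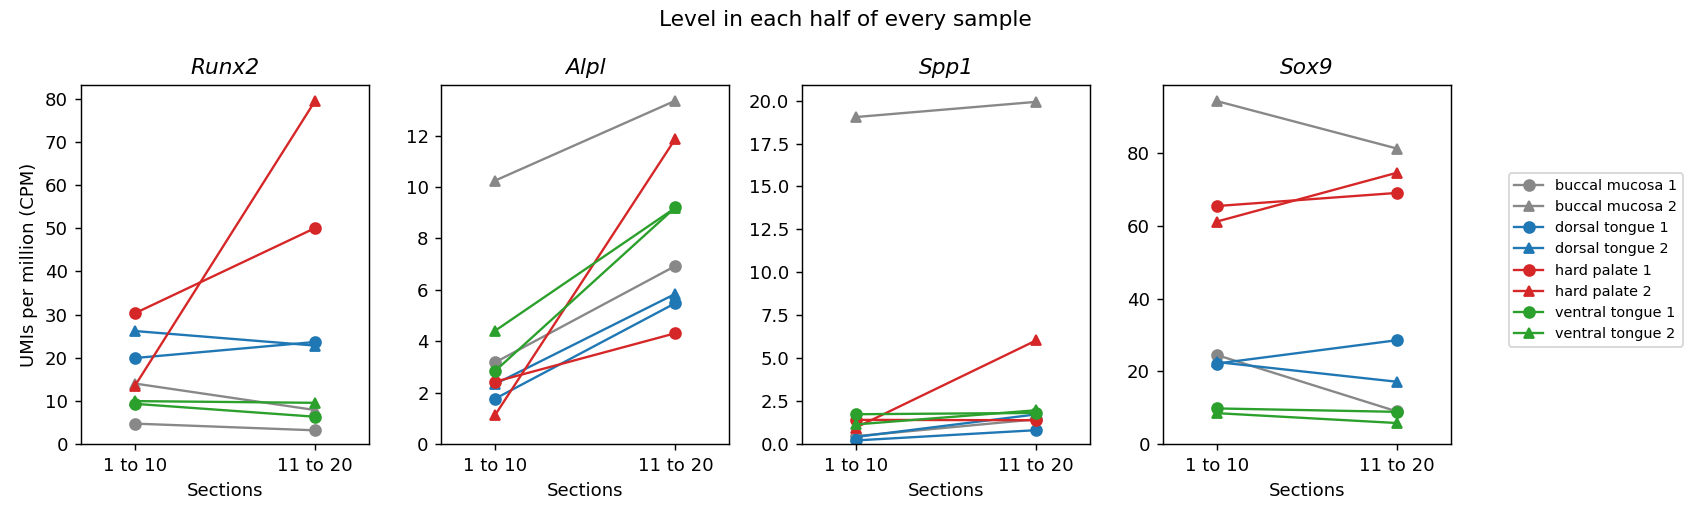
Level (CPM) in sections 1 to 10 and 11 to 20 of every sample for Runx2, Alpl, Spp1 and Sox9; colours give the site, circles replicate 1 and triangles replicate 2. Runx2 rises most in hard palate replicate 2, from 13.4 to 79.4 CPM, and Alpl rises in all 8 samples.

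Whether the difference between sections 11 to 20 and 1 to 10 was itself larger in hard palate than elsewhere was tested as an interaction, which called 0.760% of 17905 genes upward and 1.88% downward. Of the 8 tested genes 0 passed in edgeR, with 3 at an unadjusted p under 0.05 (Runx2, Bglap and Col2a1), and DESeq2 called 1. Ibsp, Acan and Col2a1 held only 7, 9 and 5 UMIs in the other samples together, so for them this test could not decide. Bglap entered it only by being high in sections 11 to 20 of hard palate replicate 2. Runx2 came nearest, with 1.72 (SE 0.41, edgeR adjusted p = 0.0557). It passed in 4 of 7 other settings, namely another scaling (adjusted p = 0.0407), estimated transcripts (0.0464), DESeq2 (0.00238) and no filter (1.17e-13). With no filter many more genes passed in all, so that its small p-value is no sign of stronger evidence. Runx2 had log2 differences of 1.72 to 2.33 over the 7 settings. It did not pass with read counts (0.0761), with the first against the last 5 sections (0.136) or without shallow sections (0.0554), and it passed in 2 of 8 fits that left out 1 sample. Sections 1 to 10 and 11 to 20 were at 30.3 and 50.02 CPM in hard palate replicate 1 and 13.4 and 79.4 CPM in replicate 2, against 4.78 and 3.22, 14.1 and 7.92 CPM in buccal mucosa, 19.95 and 23.7, 26.2 and 22.8 CPM in dorsal tongue and 9.36 and 6.38, 9.99 and 9.59 CPM in ventral tongue. For Alpl the difference was 0.76 (edgeR adjusted p = 0.478), and for Ibsp, Acan and Col2a1 the other sites held too few UMIs to give such a difference.

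Markers of other cell types moved along the same axis in hard palate. From sections 1 to 10 to sections 11 to 20 of replicate 2, the summed level of 10 endothelial markers went from 130 to 416 CPM, of 10 Schwann cell markers from 438 to 1290 CPM, of 12 macrophage markers from 167 to 482 CPM, of 10 fibroblast markers from 3125 to 5072 CPM and of 10 keratinocyte markers from 18450 to 14789 CPM. In replicate 1 the same lists went from 104 to 227, 424 to 621, 170 to 206, 1943 to 2704 and 18936 to 19426 CPM. Sums of endothelial, Schwann cell, macrophage and fibroblast markers were thus higher in sections 11 to 20 of both samples, with the larger ratios in replicate 2, and keratinocyte markers remained at over 13700 CPM in the last 5 sections of both. Over all genes, 3.28% passed as higher in sections 11 to 20 and 2.45% as lower. Of these lists, 8 of 9 tested endothelial, 6 of 10 Schwann cell, 4 of 12 macrophage and 3 of 10 fibroblast genes passed as higher there. So did 2 of 6 bone marrow and neutrophil and 5 of 15 salivary gland genes, and 1 salivary gland gene passed as lower. The summed level of the 14 marrow and neutrophil genes went from 96.2 to 307 CPM in replicate 2 and from 755 to 933 CPM in replicate 1, with Mpo and Elane at 0 UMIs in both, and that of the salivary gland genes from 44.0 to 194 CPM in replicate 2 and from 194 to 77.1 CPM in replicate 1. The interaction called 0.760% of all genes upward. Of marrow and neutrophil genes 2 of 6 passed upward there (Ltf and Lcn2, named after their values were seen). So did 3 of 15 salivary gland, 1 of 12 macrophage and 1 of 9 endothelial genes. A single call in such a list cannot be told apart from the share over all genes. The part of these cell types in the difference of the bone genes was not tested.

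Runx2 and Sox9 had enough UMIs to ask which genes' section profiles were most like theirs, by the lower of the Spearman correlations in the 2 hard palate samples, each over 20 sections of CPM, among 11123 other genes with at least 100 UMIs in each sample. The values of a section share its barcode and depth, so these values are descriptions. For Runx2 the nearest were Plcb1 (0.88 and 0.90), Tcf4 (0.87 and 0.89), Slit3 (0.86 and 0.85), Zbtb20 (0.85 and 0.88) and Heg1 (0.83 and 0.94). For Sox9 they were Efnb1 (0.69 and 0.71), Ncoa6 (0.70 and 0.68), Smad3 (0.82 and 0.67), Stt3b (0.67 and 0.67) and Cdc42ep3 (0.73 and 0.66). With Ibsp, the profile of Runx2 had a correlation of 0.40 in replicate 1 and 0.79 in replicate 2, and with Acan of -0.24 and -0.76.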

How the data were processed

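CEL-seq2 libraries, which count the 3′ ends of transcripts, were made from the RNA of single sections and run on a NextSeq500, per the labels' protocols. The submitters' processing notes name STAR 2.7.9a, Trim Galore 0.6.10 and GRCm38; which program counted is not stated in the labels or files used. Per gene and section, the deposited tables hold counts of UMIs, of reads, and estimated counts of transcripts. The last are, in the authors' values, a fixed function of the UMI count. UMI counts were used, and estimated counts were rounded for 1 alternative. The 413 entries naming several genes stayed in library sizes and tests.

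UMIs were summed over 20 sections, or over sections 1 to 10 and 11 to 20, tested with edgeR 4.0.16 in R 4.3.3 (quasi-likelihood, TMM scaling, after filterByExpr), with Benjamini-Hochberg adjustment over all genes and a threshold of 0.05. All 8 samples shared 1 estimate of spread; section groups were fitted with the sample as a block. The SE is the log2 fold change divided by the square root of F. The scripts were tested on simulated data. Levels in CPM are not scaled by TMM. Alternatives were other scaling, DESeq2 1.42.0, no filter, reads, estimated transcripts, the replicate number as a block, the first against the last 5 sections, each sample left out, and, chosen after seeing the data, leaving out sections under 100000 UMIs.

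Members, lists and comparisons were chosen with earlier results of these data known. Genes named were all 10 members, up to 5 per list that passed with at least 5 CPM in the higher group, by size, and the 5 genes most alike to each member with at least 100 UMIs in each hard palate sample. Replicates differed beyond sampling noise (chi-square per degree of freedom of 34.5 to 257) and were kept apart. Intervals are Clopper-Pearson 95% intervals, and the floor of a count of 0 is 3 UMIs; both cover counting error only. 1 gene of a list is counted but not reported here.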

Additional observations from a re-analysis of the deposited data

How the results depend on the processing

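With only 2 samples per site, counts of calls moved strongly with the samples used. Genes called between hard palate and the other sites numbered 1817, against 3109 with DESeq2 and 3728 with no filter on low counts, and 318 to 5526 when 1 sample was left out. Any difference among the sites was called for 887 genes, against 3294 with DESeq2, 4522 with no filter and 0 to 5684 with 1 sample left out; where none was called, without dorsal tongue replicate 1 or 2 or hard palate replicate 1, edgeR had 2883, 2883 and 2750 genes at an unadjusted p under 0.05. Sections 11 to 20 and 1 to 10 of hard palate differed in 1026 genes, against 2321 with no filter, 596 with read counts, 449 with the first against the last 5 sections and 103 to 2577 with 1 sample left out. The interaction called 472 genes, against 1697, 255 and 10 under the same 3 settings and 16 to 1353 with 1 sample left out. With the replicate block, 1334 genes were called between hard palate and the rest and 362 for any difference, where Col2a1 was lost (adjusted p = 0.0725); the correlation of replicate differences between sites ran from -0.28 to 0.54, the highest between dorsal and ventral tongue. Not every pair of sites was over 0.1, so the numbers were not taken to pair the samples, although whether tongue samples of 1 number share an animal is not given.

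Of 453 values of the 8 tested genes under alternatives, 358 kept their side of the threshold and, where the test gives one, their direction. The call was lost for 59 and gained for 27, and 9 changed sign, all 9 among values that had not passed. The test of any difference among the sites gives no direction, so its values could not change sign. The changes of sign arose on leaving out 1 sample, most often a hard palate one. Over those fits the log2 difference between the sites ran from -1.14 to 0.018 for Alpl, -0.19 to 2.32 for Bglap and -1.03 to 1.02 for Spp1, and without dorsal tongue replicate 2 and hard palate replicate 1 it was 0.09 and 0.43 for Spp1. Between the section groups it ran from -0.25 to 2.41 for Spp1 and -0.15 to 0.078 for Sox9, and in the interaction from -0.50 to 2.00 for Alpl and -1.09 to 1.53 for Spp1. With read counts none of the 5 section differences passed (adjusted p = 0.0675 to 0.10). The cause of these changes was not tested. For Sp7 and Dmp1, and for Ibsp, Acan and Col2a1 outside hard palate, the counts limit any statement.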
